A study of Mus musculus with 20 samples.

Results

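The genes described here write, copy, read and erase DNA methylation: Dnmt1, Uhrf1, Dnmt3a, Dnmt3b, Tet1, Tet2, Tet3, Tdg and Mbd2. They were chosen by name, as folate supplies methyl groups, with earlier results of these data known. A gene counted as measured when at least 1 transcript cluster, the array's unit for a gene or part of one, carried that gene symbol and no other. Where a gene had several such clusters, the one with the highest mean signal over all arrays was used. By this rule 8 of the 9 genes were measured, out of 21640 clusters with exactly 1 symbol and 34760 clusters in all. Tdg shared all 4 of its clusters with the gene symbol Tdg-ps2, so no value is given for it.

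The arrays came from the left ventricle of male C57BL/6 mice, 2 months old by the labels, in a design that crossed doxorubicin with folic acid. FA-DOXO mice (n = 6) received folic acid at 10 mg per day and 1 intraperitoneal injection of doxorubicin at 20 mg/kg, and DOXO mice (n = 6) received the same injection with placebo. FA-sham mice (n = 4) received folic acid and saline, and sham mice (n = 4) received placebo and saline. Folic acid or placebo was started 7 days ahead of the injection and was continued to the end of the experiment at 10 days. Each array was 1 labelled sample of whole ventricle, so fewer cells of a type and less RNA per cell cannot be told apart. Nothing in the labels gives more on how the samples of a group were obtained than a replicate number, and the p-values measure the spread between these samples.

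DNA methylation is the addition of a methyl group to cytosine, in mammals mostly where a C is followed by a G (CpG). Dnmt3a and Dnmt3b place new methyl groups, whereas Dnmt1 copies the pattern to the new strand after replication, guided by Uhrf1, which binds half-methylated sites. Tet1, Tet2 and Tet3 oxidise methylcytosine, Tdg excises the later oxidation products so that base excision repair can restore an unmethylated C, and Mbd2 binds methylated CpG as part of the NuRD repressor complex. Folate enters here because its one-carbon units remethylate homocysteine to methionine, the precursor of S-adenosylmethionine, the methyl donor of all DNA methyltransferases. Doxorubicin is an anthracycline that intercalates into DNA and traps topoisomerase II, and its use is limited by damage to the heart.

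The promoters of these genes themselves hold CpG, the kind of site that the enzymes act on. Whether the enzymes act on these promoters was not tested. RefSeq windows of 300 bases (GRCm38.p6; 250 bases before and 50 after a start site) were found for 8 of the 9 genes, 13 windows in all; those of Mbd2 are not shown. Over all 32851 windows of this kind the median was 7 CG. The Tet2 window held 57 CG, a number that 0.152% of all windows reached. The windows below are shown for Uhrf1, Dnmt3b and Tet2, whose signals moved strongly with the spread of the array in the values that follow. Each is printed 5′ to 3′ on the strand of its gene, with every CG in capitals.
Uhrf1, the second of its windows, 33 CG, chr17:56304063-56304362, plus strand: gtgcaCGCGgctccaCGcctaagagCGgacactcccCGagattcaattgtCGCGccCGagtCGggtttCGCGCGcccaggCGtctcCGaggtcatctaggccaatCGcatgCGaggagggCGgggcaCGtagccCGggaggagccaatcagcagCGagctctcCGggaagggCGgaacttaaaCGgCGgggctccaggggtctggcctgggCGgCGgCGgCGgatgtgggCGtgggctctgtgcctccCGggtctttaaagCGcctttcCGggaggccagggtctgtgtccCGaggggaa
Dnmt3b, 30 CG, chr2:153649199-153649498, plus strand: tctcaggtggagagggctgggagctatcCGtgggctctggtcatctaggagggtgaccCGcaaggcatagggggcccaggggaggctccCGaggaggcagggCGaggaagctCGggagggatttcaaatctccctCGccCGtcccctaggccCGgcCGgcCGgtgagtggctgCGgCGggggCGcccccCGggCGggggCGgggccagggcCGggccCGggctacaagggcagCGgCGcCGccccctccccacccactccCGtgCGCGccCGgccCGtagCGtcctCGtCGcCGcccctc
Tet2, 57 CG, chr3:133544341-133544640, minus strand: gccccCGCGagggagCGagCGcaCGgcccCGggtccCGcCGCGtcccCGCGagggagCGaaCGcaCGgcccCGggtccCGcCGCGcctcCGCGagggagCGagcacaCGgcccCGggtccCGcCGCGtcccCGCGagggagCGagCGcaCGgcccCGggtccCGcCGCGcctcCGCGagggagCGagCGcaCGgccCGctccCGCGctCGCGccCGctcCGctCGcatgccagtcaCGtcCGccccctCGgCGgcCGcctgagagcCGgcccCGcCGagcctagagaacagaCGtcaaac
Of the other windows, those of Dnmt3a held 46, 47 and 18 CG, those of Dnmt1 held 2, 12 and 33 CG, the remaining Uhrf1 window held 12, Tdg 26, Tet3 22 and Tet1 17. The genes of the printed windows were chosen for the pattern described next, in which Tet2 signals rose and Dnmt3b and Uhrf1 signals fell with the array spread. Because of that choice they cannot show whether the number of CG goes with the pattern, which was not tested. Methylation itself was not measured, and the number of CG in a window says nothing about whether they were methylated.

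The arrays were not alike, and most of the variation of several of these genes followed the array and not the group. The deposited values are log2 signals, on which a difference of 1 is a 2-fold difference. The standard deviation of the 34760 signals of an array (array SD) ranged between 0.863 and 1.50. Arrays with an SD above 1.1 are called wide here and the others narrow, a split taken from earlier results of these data. Wide arrays were 2 of 6 FA-DOXO, 2 of 6 DOXO, 1 of 4 FA-sham and 3 of 4 sham arrays, and the mean array SD was 1.04, 1.13, 0.957 and 1.27 in the same groups. The sham group thus held the largest share of wide arrays and FA-sham the smallest. The mean log2 signal of 8 heart muscle markers, read beside the tissue label, lay between 11.0 and 12.8 on wide arrays. On narrow arrays it was lower, between 7.97 and 10.4, though above every array median. Markers of other tissues were not compared. What made the arrays differ was not tested. Apart from Mbd2 (7.93), the mean signals of the measured genes lay between 6.29 (Tet2) and 6.87 (Dnmt1). The array medians lay between 6.23 and 6.66, so these signals were near the middle of the array. Dnmt3b, Uhrf1, Tet2 and Tet3 were not above the median of the mean signals of all clusters. Whether the signals of these genes stood above background was not tested.

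Dnmt1, the maintenance methyltransferase, had similar signals in all groups. In FA-DOXO hearts its log2 signal had a lowest value of 6.67, a median of 6.86 and a highest value of 6.99. In DOXO hearts the lowest, median and highest were 6.58, 6.90 and 7.11. The 4 FA-sham arrays read 6.99, 6.76, 6.78 and 6.96, and the 4 sham arrays read 6.49, 7.24, 6.84 and 6.80. All 4 groups overlapped, and the sham group alone spanned more than the distance between any group means, which were 6.85 ± 0.11, 6.91 ± 0.19, 6.87 ± 0.12 and 6.84 ± 0.31 (SD) for FA-DOXO, DOXO, FA-sham and sham.

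Uhrf1, which brings Dnmt1 to newly replicated DNA, split the arrays of 3 groups into a high and a low set. In FA-DOXO hearts the log2 signal was lowest at 6.09, with a median of 6.57 and a highest value of 6.61. In DOXO hearts it was lowest at 5.98, with a median of 6.58 and a highest value of 6.86. The FA-sham arrays read 6.76, 6.42, 6.57 and 6.39, against 6.15, 6.01, 6.12 and 6.77 on the sham arrays. In each group the low values were those of the wide arrays: the 8 wide arrays lay between 5.98 and 6.39 and the 12 narrow arrays between 6.42 and 6.86, without overlap.

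The de novo methyltransferases behaved differently from each other. Dnmt3a read 6.53, 6.72 and 6.85 (lowest, median, highest) in FA-DOXO hearts and 6.55, 6.70 and 6.87 in DOXO hearts. Its FA-sham signals were 6.91, 6.55, 6.73 and 6.72, and its sham signals were 6.28, 7.13, 7.03 and 6.78. The 2 highest and the lowest of all 20 Dnmt3a values were sham arrays, and each other group lay inside that range.

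Dnmt3b had a lowest log2 signal of 6.18, a median of 6.59 and a highest of 6.75 in FA-DOXO hearts. Its lowest, median and highest signals in DOXO hearts were 5.92, 6.67 and 6.78. In FA-sham hearts the 4 values were 6.77, 6.73, 6.74 and 6.53, against 6.36, 5.94, 6.11 and 6.64 in sham hearts. As for Uhrf1, wide arrays (5.92 to 6.53) and narrow arrays (6.54 to 6.78) did not overlap, although the gap between them was small. FA-sham and sham overlapped only through 1 array each, the wide FA-sham array (6.53) and the narrow sham array (6.64).

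Among the erasers, Tet1 varied little outside of a few arrays. In FA-DOXO hearts the lowest, median and highest log2 signals were 6.47, 6.64 and 6.75, and in DOXO hearts they were 6.07, 6.67 and 6.80. FA-sham arrays read 6.84, 6.83, 6.73 and 6.67, and sham arrays read 6.40, 6.75, 6.95 and 6.95. The lowest signals in the DOXO group, 6.07 and 6.30, were its 2 wide arrays, whereas 2 of the 3 wide sham arrays were not low.

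Tet2 was the eraser with the widest spread. Its lowest, median and highest log2 signals were 5.83, 6.12 and 6.99 in FA-DOXO hearts and 5.76, 6.02 and 7.54 in DOXO hearts. The FA-sham signals were 6.04, 6.07, 6.09 and 6.05, against 5.97, 7.29, 7.07 and 5.93 in sham hearts. The FA-sham values lay between 6.04 and 6.09 (SD 0.019), while the sham SD was 0.71. High Tet2 signals came from wide arrays (5.97 to 7.54), and no narrow array went above 6.17.

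Tet3, the third of the family, read 6.02, 6.34 and 6.48 (lowest, median, highest) in FA-DOXO hearts and 5.88, 6.35 and 6.56 in DOXO hearts. FA-sham arrays had signals of 6.65, 6.36, 6.55 and 6.19, against 5.90, 6.64, 6.60 and 6.29 on sham arrays. Wide arrays were both the lowest and among the highest, and the groups overlapped throughout.

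Mbd2, the reader, had the largest differences between arrays of the 8 genes. Its log2 signal in FA-DOXO hearts was lowest at 6.88, with a median of 7.48 and a highest value of 9.32. In DOXO hearts it was lowest at 6.81, with a median of 7.62 and a highest value of 9.83. The FA-sham signals were 6.88, 7.04, 6.85 and 8.35, and the sham signals were 8.45, 9.47, 9.29 and 6.92. The single low sham array was the narrow one and the single high FA-sham array the wide one, and over all arrays the wide ones (8.35 to 9.83) and the narrow ones (6.81 to 7.80) did not overlap.

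**Figure D1:**
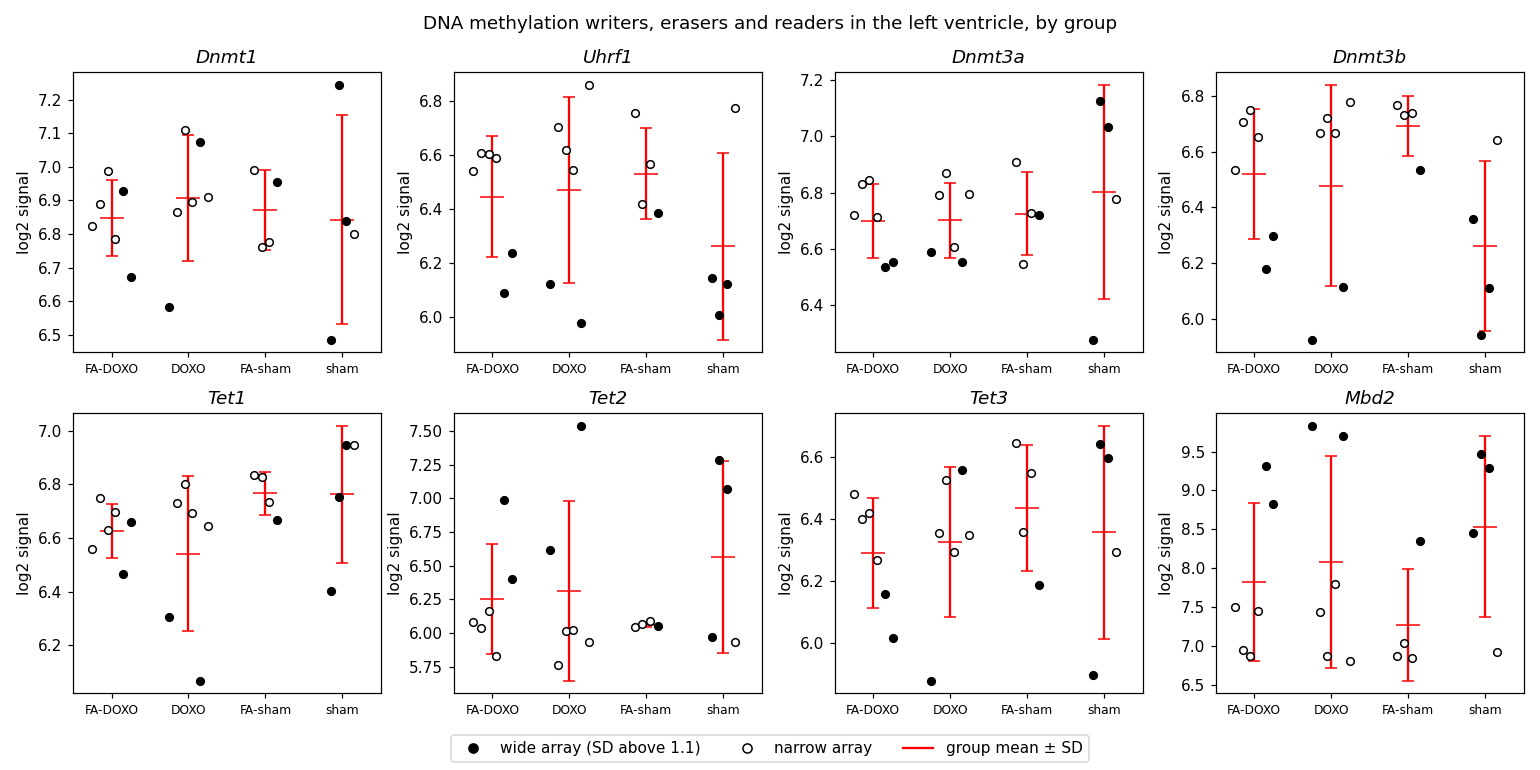
Log2 signal of the 8 measured genes on each of the 20 arrays (y axis, a scale for each gene) in FA-DOXO, DOXO, FA-sham and sham hearts (x axis). Filled points are wide arrays, open points narrow arrays, and red marks the group mean ± SD. For Uhrf1, Dnmt3b and Mbd2 the filled and open points separate whatever the group. Mbd2 lies at 8.35 to 9.83 on wide arrays and at 6.81 to 7.80 on narrow ones. How many of all clusters separate in the same way was not counted.

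The question of the design was whether doxorubicin, folic acid or both changed these genes. None of the 8 passed the unadjusted p of 0.01 that the methods used, or a Benjamini-Hochberg adjusted p of 0.05, in any of 7 comparisons (limma, fitted to all 34760 clusters and all 20 arrays). In DOXO against sham hearts 0 of 8 passed, where 1.05% of all clusters did at the unadjusted threshold and 0.00288% after adjustment. The difference with the smallest p was that of Tet1, 0.22 lower in DOXO hearts (log2 difference -0.22, SE 0.14, 95% interval -0.52 to 0.07, adjusted p = 0.647, limma). The 8 differences ran between -0.46 for Mbd2 and 0.22 for Dnmt3b, with 3 genes above 0 and 5 below, and their median was -0.07, beside a median of 0.10 over all clusters. Tet1 passed the unadjusted threshold in this comparison with each array centred on its median (log2 difference -0.34, 1.32% of clusters called). It also passed with the wide or narrow kind of the array as a block term (-0.33, 1.54%). With array weights 7 of the 8 genes and 84.9% of clusters passed, Tet1 among them (-0.24), so that fit did not single out Tet1. Its weights did not converge and gave sham replicate 3 a weight of 86.0.

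Folic acid given with doxorubicin also left 0 of 8 past either threshold. In FA-DOXO against DOXO hearts 0.158% of all clusters passed unadjusted and 0% after adjustment. Tet1 had the smallest p here as well, with a log2 difference of 0.09 (SE 0.13, 95% interval -0.18 to 0.35, adjusted p = 1.00, limma). Of the 8 differences 2 were above 0 and 6 below, with a median of -0.03, beside 0.03 over all clusters. The 95% intervals of the other genes except Mbd2 reached no farther than -0.68 and 0.55, and that of Mbd2 ran between -1.52 and 1.00. The interval of Mbd2 thus held 2-fold differences in either direction.

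In FA-DOXO against FA-sham hearts, the effect of doxorubicin under folic acid, 0 of 8 passed, beside 0.268% of clusters unadjusted and 0.00288% after adjustment. Tet1 was 0.14 lower in FA-DOXO hearts (log2 difference -0.14, SE 0.14, 95% interval -0.44 to 0.16, adjusted p = 0.983, limma). The 8 differences ran between -0.17 for Dnmt3b and 0.54 for Mbd2, with 2 above 0 and 6 below, and the median over all clusters was -0.04. With both diets averaged the doxorubicin difference of Tet1 was -0.18 (SE 0.10, 95% interval -0.39 to 0.03, adjusted p = 1.00, limma), and 0 of 8 genes passed, where 0.506% and 0.0115% of clusters did before and after adjustment. This Tet1 difference passed the unadjusted threshold with the same block term (-0.23, 1.93% of clusters). On narrow arrays alone, with 1 sham array, it was -0.19. With array weights 6 of the 8 genes and 70.2% of clusters passed, Tet1 among them (-0.18). The direction of the Tet1 difference was the same with and without folic acid, although neither comparison passed the threshold.

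Folic acid alone gave the smallest unadjusted p of the 4 pairwise comparisons. In FA-sham against sham hearts Dnmt3b averaged 6.69 ± 0.11 in FA-sham hearts and 6.26 ± 0.31 in sham hearts (SD, n = 4 each), a log2 difference of 0.43 (SE 0.20, 95% interval 0.02 to 0.84, adjusted p = 0.157, limma). That missed the threshold of 0.01, as did the other 7 genes, in a comparison where 4.35% of all clusters passed it and 0% passed after adjustment. The largest difference was that of Mbd2, 7.28 ± 0.72 in FA-sham hearts and 8.53 ± 1.16 in sham hearts, a log2 difference of -1.25 with an SE of 0.74. Uhrf1 differed by 0.27 and Tet2 by -0.50 in the same comparison. Among the genes described here, the signals of Dnmt3b, Uhrf1 and Mbd2 did not overlap between wide and narrow arrays. The share of all clusters that separated in this way was not counted. Such a split need not be particular to these genes, as 76.1% of all clusters changed with the array SD at the unadjusted threshold. The highest Tet2 signals came from wide arrays, and the FA-sham group had 1 wide array against 3 in the sham group.

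Averaged over both interventions, the folic acid difference of Dnmt3b was 0.24 (SE 0.13, 95% interval -0.03 to 0.50, adjusted p = 0.215, limma), and 0 of 8 passed beside 2.63% of clusters unadjusted and 0% adjusted. The interaction asked whether folic acid acted differently in doxorubicin-treated and sham hearts. Its smallest p was again that of Dnmt3b (log2 -0.39, SE 0.25, 95% interval -0.92 to 0.14, adjusted p = 0.570, limma), with 0 of 8 past the threshold and 0.463% of clusters unadjusted and 0% adjusted. The comparisons share arrays, so the values of Dnmt3b in them are not independent of each other.

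With the array SD as a covariate the picture of the single genes shifted, but still 0 of 8 passed in each of the 7 comparisons. Across all clusters this fit called 4.14% in DOXO against sham, 1.11% in FA-DOXO against DOXO, 1.07% in FA-DOXO against FA-sham and 1.83% in FA-sham against sham. It called 1.78% for the interaction, 2.83% for doxorubicin averaged over diets and 1.31% for folic acid averaged over interventions. The Tet1 difference in DOXO against sham hearts became -0.31 (SE 0.11, 95% interval -0.53 to -0.08, adjusted p = 0.252, limma). The Dnmt3b difference in FA-sham against sham hearts shrank to 0.05, and that of Mbd2 changed sign to 0.31 (95% interval 0.01 to 0.60, adjusted p = 0.623, limma). Mbd2 was also nearest to the threshold for folic acid averaged over interventions, at 0.25 (95% interval 0.06 to 0.44, adjusted p = 0.745, limma). The values of Dnmt3b and Mbd2 in the folic acid comparisons therefore depended on whether the spread of the array was taken into account, while the Tet1 difference in DOXO against sham kept its sign.

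**Figure D2:**
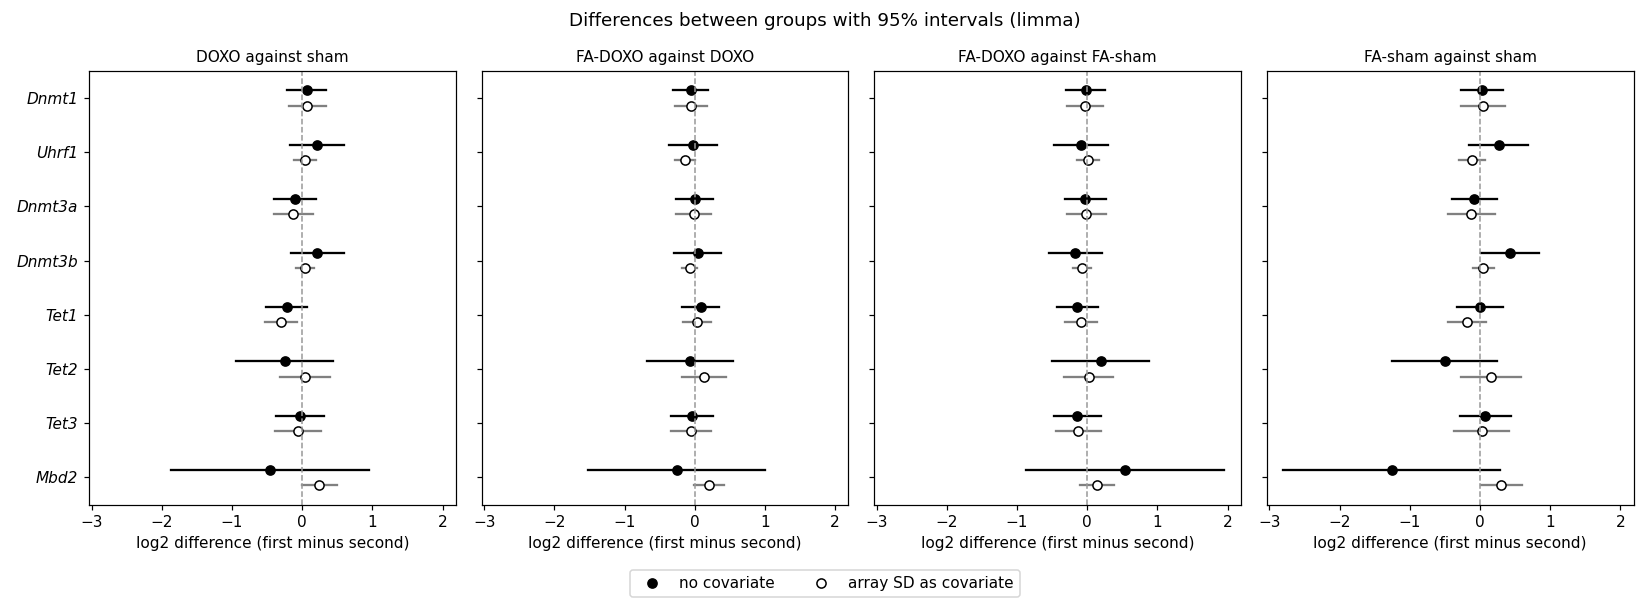
Log2 difference of each of the 8 genes (x axis, first group minus second) with its 95% interval in 4 comparisons, for limma fits with no covariate (filled) and with the array SD as covariate (open). The widest intervals are those of Mbd2 without the covariate, and the Mbd2 difference in FA-sham against sham goes to 0.31 with the covariate, against -1.25 without it.

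Within arrays of one kind the differences are given here as values only, and the narrow sham group and the wide FA-sham group held 1 array each. Tet1 was lower in DOXO than in sham hearts in both sets, by a log2 difference of -0.51 on wide arrays (2 against 3) and -0.23 on narrow arrays (4 against 1). In FA-DOXO against DOXO hearts Tet1 differed by 0.38 on wide arrays (2 against 2) and by -0.06 on narrow arrays (4 against 4). Dnmt3b differed by 0.40 between FA-sham and sham on wide arrays (1 against 3) and by 0.10 on narrow arrays (3 against 1). For Mbd2 the same comparison gave -0.72 on wide and 0.00030 on narrow arrays.

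The relation of each gene to the array SD, estimated in the same fit with group means, passed the threshold for most of them. Of the 8 genes 5 had a slope past the unadjusted p of 0.01, against 76.1% of all clusters, so the members did not stand out by their number. Mbd2 rose by 5.06 log2 units per unit of array SD (SE 0.20) and Tet2 rose by 2.14 (SE 0.29). Dnmt3b fell by 1.25 (SE 0.10), Uhrf1 fell by 1.23 (SE 0.13) and Tet1 fell by 0.60 (SE 0.19). The slopes of Dnmt1 (0.07), Dnmt3a (-0.15) and Tet3 (-0.17) did not pass. The median slope over all clusters was -0.53, with 9559 called clusters above 0 and 16901 below, so the falling slopes of Dnmt3b and Uhrf1 had the sign of most clusters and those of Mbd2 and Tet2 did not. The array SD is itself computed from all signals, these included.

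**Figure D3:**
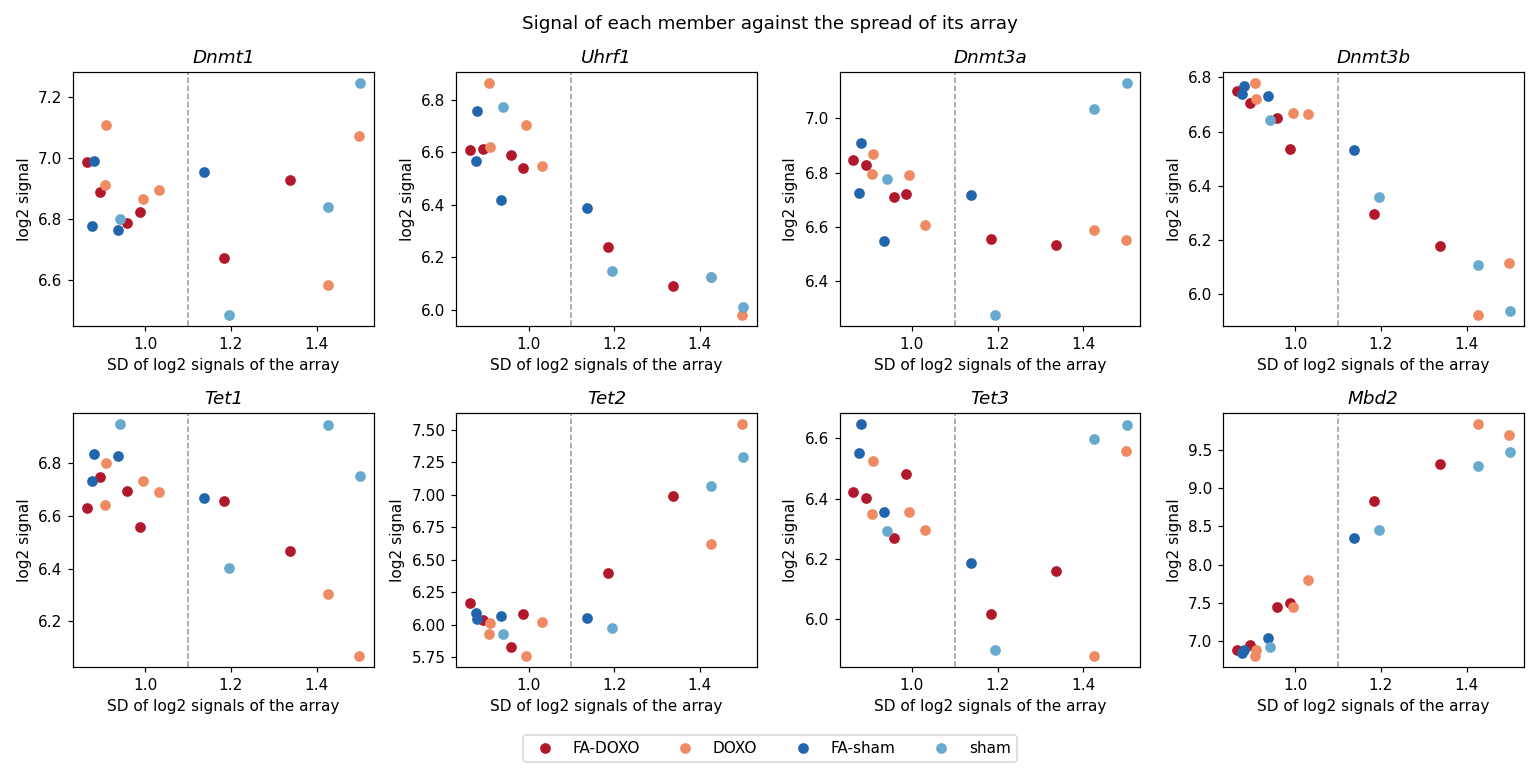
Log2 signal of each gene (y axis, a scale for each gene) against the SD of all log2 signals of the same array (x axis), coloured by group, with the split at 1.1 dashed. Mbd2 signals climb with the array SD and Dnmt3b and Uhrf1 signals decline, with arrays of all groups on the same course. Tet2 signals climb too, except that the wide FA-sham array (6.05) and wide sham replicate 1 (5.97) lie among the narrow arrays. Dnmt1, Dnmt3a and Tet3 scatter on the wide arrays.

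Markers of cell types moved on the same arrays. Of 9 measured markers of proliferating cells, the cells in which Uhrf1 and Dnmt1 are known to be most active, 8 fell with the array SD. That was the direction of Uhrf1 and Dnmt3b, and of most called clusters (16901 below 0, 9559 above). The slope of Dnmt1 was 0.07 and did not pass. Among the partner genes described below, Pcna rose (slope 2.78), and Hells (-1.04) and Cdca7 (-0.92) fell. The mean log2 signal of the 9 proliferating cell markers lay between 5.90 and 6.52 on wide arrays and between 6.34 and 6.62 on narrow arrays. The array medians lay between 6.23 and 6.66, so these signals were near the middle of the array. All 8 heart muscle markers and all 5 endothelial markers rose with the array SD, the direction of Mbd2 and Tet2, as did all 5 macrophage markers. All 4 measured lymphocyte markers fell, and of the 5 fibroblast markers 2 rose and 2 fell. The part of these markers in the slopes of the members was not tested. By group, the 5 neutrophil markers averaged between 6.46 and 7.53 in DOXO hearts and between 5.59 and 6.41 in sham hearts, with no overlap. The share of all clusters that separated DOXO from sham arrays in this way was not counted. Of the 5, 4 were called higher in DOXO hearts at the unadjusted threshold, beside 1.05% of all clusters. Without a covariate, none of the markers of the other cell types was called there. Their median log2 differences were -1.01 for heart muscle, -0.71 for endothelial and -0.25 for macrophage markers. They were -0.06 for proliferating cell, -0.01 for fibroblast and 0.10 for lymphocyte markers, beside 0.10 over all clusters. In FA-sham against sham hearts all 5 neutrophil markers were higher too, by 0.40 to 0.65, with 1 called beside 4.35% of all clusters. The median for heart muscle markers was -2.24 there, and -0.01 with the array SD as covariate. Under folic acid, the neutrophil markers of FA-DOXO (6.48 to 6.94) and FA-sham arrays (6.30 to 6.55) overlapped, and 0 of 5 were called, beside 0.268% of all clusters. Averaged over diets, 3 of 5 were called higher with doxorubicin, beside 0.506% of all clusters. The part of the neutrophil markers in the Tet1 difference in DOXO against sham hearts was not tested.

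After group means and array SD were removed, several members still varied together over the 20 arrays. Tet3 had residual correlations of 0.80 with Tet2, 0.80 with Dnmt1 and 0.75 with Dnmt3a, and of -0.82 with Mbd2. Tet2 and Mbd2, which rose together with the array SD, were inversely related in what was left (r = -0.81). Dnmt3b and Uhrf1 had r = 0.91 in the signals themselves and r = -0.0041 in the residuals. These correlations are descriptions, since all points share the normalization of their array. The signals of Tet3, Tet2, Dnmt3a and Dnmt1 varied more on wide arrays (SD 0.32, 0.57, 0.28 and 0.26) than on narrow arrays (0.12, 0.12, 0.11 and 0.10). How far the correlations rest on the wide arrays was not tested. The clusters most like each gene in its residuals, among those with 1 symbol, were Dhx35 (r = 0.93) and Phldb1 (0.93) for Dnmt1, Tgfb3 (0.96) and Slc17a7 (0.95) for Dnmt3a, Wasf3 (0.85) and Mcm4 (0.83) for Dnmt3b, and Myo7b (0.86) and Myo1g (0.83) for Uhrf1. For Tet1 they were H2-T24 and Ercc6l2 (0.88 each), for Tet2 4932438A13Rik and Hipk1 (0.94 each), for Tet3 Nes (0.97) and Bcl9 (0.96), and for Mbd2 Adipor1 and Tmed10 (0.94 each).

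Tet1 was the gene with the most clusters of its own, and they did not run alike. The cluster used (10369690) and cluster 10369688 had slopes of -0.60 and -0.51 on the array SD, whereas cluster 10369702 had a slope of 0.93. On cluster 10369702, singled out after its values were seen, the sham arrays read 6.54, 7.72, 7.46 and 6.36, against 6.25, 6.41 and 6.74 (lowest, median, highest) in DOXO hearts. It was lower in DOXO hearts by a log2 difference of -0.57 (SE 0.20, adjusted p = 0.647, limma), where 2 sham arrays lay above all DOXO arrays and the other 2 inside their range. On cluster 10369688 the same difference was -0.13 (95% interval -0.46 to 0.20, adjusted p = 0.692, limma). All 3 clusters thus had lower means in DOXO than in sham hearts and none passed the threshold. The second Tet3 cluster (10545682) spread wider in sham hearts, at 5.52, 6.81, 6.68 and 6.05.

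**Figure D4:**
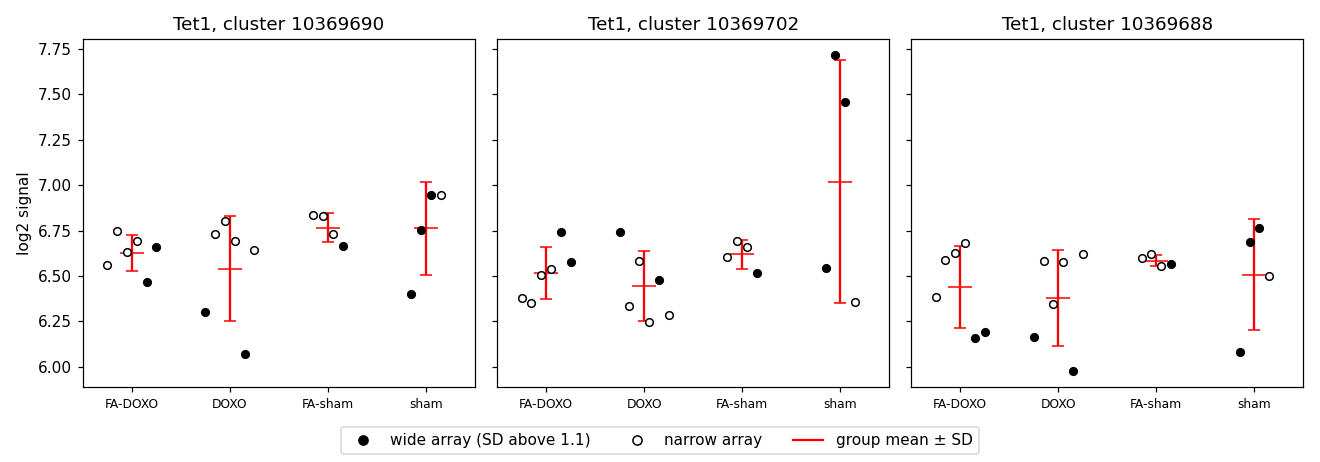
Log2 signal of the 3 Tet1 clusters (panels) on each array, by group, with wide arrays filled, narrow arrays open and the group mean ± SD in red. Cluster 10369702 has 2 wide sham arrays at 7.72 and 7.46, above all other arrays of its panel; the same 2 arrays are the highest in the panel of cluster 10369688 too, at 6.69 and 6.76, close to the arrays below them.

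The wider pathway gave 54 measured genes of 62 listed, in 4 lists of partners, readers, demethylation with base excision repair, and methyl donor supply. Without a covariate 1 of the 54 passed in FA-sham against sham, where 4.35% of all clusters did, and none in the other 6 comparisons, so the pathway genes did not stand out by their number. The gene was Mbd4, a glycosylase that removes the T or U left when a methylated or unmethylated C deaminates at CpG. Its log2 signals were 6.45, 6.37, 6.51 and 6.29 in FA-sham hearts, against 5.89, 5.81, 5.86 and 6.33 in sham hearts (log2 difference 0.43, SE 0.15, adjusted p = 0.156, limma). The groups overlapped through the wide FA-sham array and the narrow sham array, as for Dnmt3b, and the slope of Mbd4 on the array SD was -0.85. In the 9 measured readers of 11 listed the median difference of that comparison was -0.30, in the 13 of 14 partners -0.13, in the 18 of 19 demethylation genes -0.08 and in the 14 of 18 donor genes -0.07, beside 0.19 over all clusters.

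With the array SD as covariate, Mbd4 no longer passed and 3 of the 54 passed with higher values in DOXO than in sham hearts, a share near the 4.14% of all clusters called in that fit. Gadd45b, a stress-induced gene linked to active demethylation, was higher by 0.54 (SE 0.16, adjusted p = 0.190, limma). Gnmt, which uses S-adenosylmethionine to methylate glycine, was higher by 0.34 (SE 0.11, adjusted p = 0.223, limma), and Mat1a, a methionine adenosyltransferase that makes S-adenosylmethionine and is known from the liver, by 0.19 (SE 0.06, adjusted p = 0.230, limma). For doxorubicin averaged over diets 1 of the 54 passed, Gadd45b at 0.34 (adjusted p = 0.330, limma), beside 2.83% of all clusters. In the deposited signals Gadd45b reached 7.97 in DOXO hearts (median 6.74, lowest 6.39), against 6.70, 6.47, 6.80 and 6.28 in sham hearts, and the groups overlapped. Gnmt reached 7.01 and 6.85 on the wide DOXO arrays (DOXO median 6.36, lowest 6.10), against 6.19 to 6.29 in sham hearts. Mat1a read 5.78, 6.45 and 6.68 (lowest, median, highest) in DOXO hearts, against 5.59 to 6.45 in sham hearts. The groups overlapped for these genes too, and the array medians lay between 6.23 and 6.66.

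Slopes on the array SD were called in 37 of the 54 pathway genes (68.5%), 27 above 0 and 10 below, beside 76.1% of all clusters. By list, 5 partners rose and 4 fell of 13, 7 readers rose and 1 fell of 9, 9 demethylation genes rose and 2 fell of 18, and 6 donor genes rose and 3 fell of 14. The steepest were Idh2 (8.62) and Idh1 (4.92), the isocitrate dehydrogenases whose product 2-oxoglutarate is the cosubstrate of Tet enzymes, and Ogt (4.64), a glycosyltransferase that binds Tet proteins. Among the readers, rising slopes were the more frequent as for Mbd2, and Mbd4 was the one that fell.

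**Figure D5:**
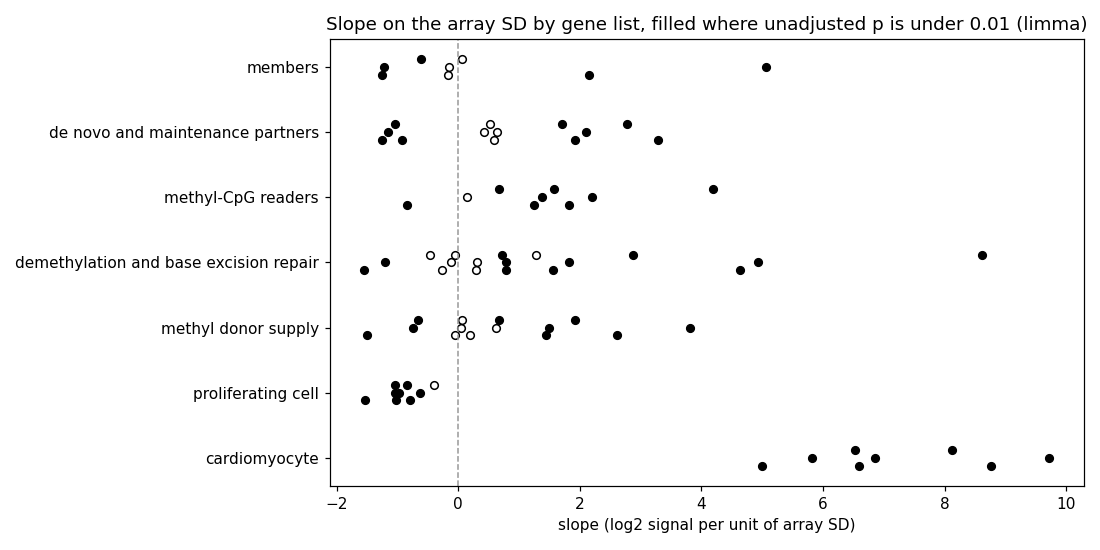
Slope of log2 signal on the array SD (x axis) for the 8 members, the 4 pathway lists and 2 marker lists, 1 point a gene, filled where the unadjusted p was under 0.01 (limma). The 8 members extend on both sides of 0, between -1.25 for Dnmt3b and 5.06 for Mbd2, while 8 of 9 proliferating cell markers are filled below 0 and all 8 heart muscle markers above it.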

How the data were processed

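Biotin-labelled RNA of 20 left ventricles was hybridised to Affymetrix Mouse Gene 1.0 ST arrays. The authors deposited log2 signals per transcript cluster. R 2.14.2 is named in their processing notes; how background was corrected and signals normalized was not given in the sources used here. Groups, replicate numbers and age came from the labels, and doses and days from the series' design text. Symbols came from the platform annotation: 21640 of 34760 clusters had 1 symbol, 1321 several and 11799 were not listed.

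The deposited signals were tested without further normalization by limma 3.58.1 in R 4.3.3, with group means over all 20 arrays and 7 contrasts, at an unadjusted p of 0.01 and a Benjamini-Hochberg adjusted p of 0.05 over all clusters. A second fit added the array SD. The code was tested on simulated data. Values are given for every member, and the difference with its SE for members past 0.01 or else for the smallest p of a comparison. Pathway genes are named where they passed 0.01. Tet1 and Tet3 clusters not used, the slopes of all members and the pathway genes with the steepest slopes are given in addition, chosen after their values were seen. The members, lists and the split into wide and narrow arrays were chosen with earlier results of these data known. No array pair was identical (highest r 0.98). Alternatives were quantile normalization, median centring, array weights, a filter on low signals, trended robust moderation, the mean over clusters of a gene, the array SD, a wide and narrow block, wide or narrow arrays alone, only the compared groups, a replicate block and leaving out each array. The number of arrays limits the precision.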

Additional observations from a re-analysis of the deposited data

Results flagged for a closer look

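Of 32 groups of 4 to 6 arrays examined (8 genes in 4 groups), 2 held an array far from the others, and chance flags about 1 in 20 groups. Dnmt3b in FA-sham replicate 4 had a log2 signal of 6.53, where the nearest other FA-sham array had 6.73. Mbd2 in FA-sham replicate 4 had a log2 signal of 8.35, where the nearest other FA-sham array had 7.04. Both values came from the same array, the single wide array of its group (array SD 1.14). No difference between groups of the 8 genes passed the interaction test.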

How the results depend on the processing

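No member passed an unadjusted p of 0.01 in the 7 comparisons, and leaving out each array in turn kept all 7 counts at 0 to 0. Median centring gave 1 in DOXO against sham (Tet1 -0.34; 1.32% of clusters), as did the wide and narrow block (1, Tet1 -0.33; 1.54%). For doxorubicin averaged over diets, the same block gave 1 (Tet1 -0.23; 1.93% of clusters) and the narrow arrays alone gave 1 (Tet1 -0.19; 0.88%), a fit whose sham arm was 1 array, assumed to vary like the other groups. Array weights gave 7 in DOXO against sham, 6 in FA-sham against sham, 5 for the interaction, 6 for doxorubicin and 5 for folic acid averaged, where 84.9%, 84.4%, 76.3%, 70.2% and 77.8% of all clusters passed; this setting gave sham replicate 3 a weight of 86.0, and the estimation of weights did not converge. The Tet1 difference in FA-DOXO against DOXO turned to -0.0112 with quantile normalization, -0.0495 with array weights, -0.0591 on narrow arrays and -0.00847 without DOXO replicate 5, the lowest of its values with 1 array left out (highest 0.138). The Dnmt3b difference for folic acid averaged turned to -0.0125 with the array SD as covariate. The cause of these changes was not tested.

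Slopes on the array SD past the threshold numbered 2 among the 4 members kept by a filter on clusters above the median signal (81.1% of clusters there), and 4 to 5 when each array was left out. The Tet1 slope missed 0.01 without DOXO replicate 1, 3 or 5 or sham replicate 4, and was -0.31 with quantile normalization, -0.08 with median centring, -0.45 with array weights and -0.06 as the mean over its clusters. Leaving out arrays moved the Tet1 difference in DOXO against sham between -0.34 (without sham replicate 1) and -0.13 (without DOXO replicate 5), and that of Dnmt3b in FA-sham against sham between 0.32 and 0.56. Quantile normalization and median centring lowered this Dnmt3b difference to 0.18 and 0.20.

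Replicate numbers gave no clear pairing: over 26 same-numbered pairs the correlation of deviations ran between -0.86 and 0.84, and 12 were over 0.1. Of 20 arrays, 4 correlated best with their own number, and how many would by chance was not tested. The spread of the array, which 76.1% of all clusters followed, enters these correlations, so they cannot decide whether the numbers pair samples. With the replicate block all 7 counts stayed 0, the Tet1 difference in DOXO against sham was -0.16 and the Dnmt3b difference in FA-sham against sham 0.43. The spread within groups limits what 4 to 6 arrays can show, most for Mbd2.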
